A study of Homo sapiens with 12 samples.

Results

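The genes described here encode the subunits of the respiratory chain and of ATP synthase, chosen by symbol: the mitochondrially encoded MT-ND, MT-CO, MT-ATP and MT-CYB genes, and the nuclear genes named NDUFA, NDUFB, NDUFC, NDUFS, NDUFV, SDH, UQCR, COX4 to COX8 and ATP5. The name rule took 99 of the 36762 rows of the count tables, 13 of them mitochondrially encoded and 86 nuclear. Complex I had 7 mitochondrial and 37 nuclear members, complex II 4 nuclear members, complex III 1 mitochondrial and 9 nuclear members, complex IV 3 mitochondrial and 17 nuclear members, and complex V (ATP synthase) 2 mitochondrial and 19 nuclear members. NDUFA4 was counted with complex IV, in which its product is found. CYC1, which encodes cytochrome c1 of complex III, has a symbol outside the rule and is described with the electron carriers.

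RNA was sequenced in bulk from UCLA1, a human embryonic stem cell (hESC) line, and from incipient mesoderm-like cells (iMeLC), an intermediate made from hESC on the way to primordial germ cell-like cells. Control lines (CTRL) and lines lacking the catalytic domain of TET1 (CDKO), all made in UCLA1, were each sequenced as hESC and as iMeLC. TET1 is the enzyme that turns 5-methylcytosine of DNA into its oxidised forms. The 12 libraries form 4 groups of 3, which are CTRL and CDKO at each of the 2 stages. The labels call the control lines CTRL1101, CTRL1106 and CTRL1109 and the knockout lines CDKO1102, CDKO1105 and CDKO1312, without stating whether a line is 1 clone.

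The respiratory chain passes electrons from NADH and succinate to oxygen through complexes I to IV and pumps protons across the inner mitochondrial membrane, and ATP synthase uses that gradient to make ATP. Complexes I, III, IV and V are built from subunits of both genomes: the mitochondrial ones sit in the membrane core and are cut from long polycistronic transcripts, while the nuclear ones are transcribed one by one, translated in the cytosol and imported. Complex II is wholly nuclear. Pluripotent stem cells are known to draw much of their ATP from glycolysis, and respiration usually rises as they differentiate.

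Total counts were 12517593 to 18855099 per hESC library and 52121702 to 109479071 per iMeLC library. The 2 stages were in separate tables, so stage, table and depth cannot be told apart in any comparison between stages. Counts of TET1 over the whole gene were 290.4 to 339 counts per 1000000 (CPM) in CTRL hESC and 335 to 396 in CDKO hESC, with no called difference, and such a sum cannot show the loss of a domain. Between stages, 7 of 8 pluripotency markers fell and 7 of 8 iMeLC markers rose in both genotypes. Markers did not separate evenly by library. EOMES was 16.4 CPM in iMeLC of CTRL1106, and the summed iMeLC markers were highest in CDKO hESC library 3 among the hESC libraries, at 586 CPM against 41.0 to 138 in the other hESC libraries. Most of that sum was 1 gene, CER1, at 358 CPM against 11.8 to 55.1 CPM in the other hESC libraries. In bulk RNA, fewer cells of a type and less RNA per cell cannot be told apart.

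In every group the mitochondrial transcripts were far more abundant than the nuclear ones. Per length of annotated exon, as RPKM, which scales reads by exon length and library size, the median mitochondrial member had 2211 RPKM in CTRL hESC and the median nuclear member 6.84 RPKM. The corresponding medians were 2409 and 6.22 RPKM in CDKO hESC, 2498 and 17.6 RPKM in CTRL iMeLC, and 3149.7 and 17.7 RPKM in CDKO iMeLC. The nuclear median was thus higher in iMeLC than in hESC in both genotypes, and it differed less between genotypes within a stage.

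Among mitochondrial members in CTRL hESC, the level per length ran from 314 RPKM for MT-ND6, the one subunit encoded on the opposite strand of the mitochondrial genome, to 4687 RPKM for MT-CO2, a catalytic subunit of complex IV. MT-CO1, which holds the site of oxygen reduction, had 4508 RPKM and MT-ND4, a proton-pumping subunit of complex I, 3725 RPKM in the same group. MT-ND3, in the hinge of complex I, had 339 RPKM, close to MT-ND6. Among nuclear members in CTRL hESC, ATP5F1B, the catalytic beta subunit of ATP synthase, was highest with 243 RPKM, and in CTRL iMeLC the accessory complex I subunit NDUFS5 was highest with 480.3 RPKM. MT-ATP6 and MT-ATP8 overlap, as do MT-ND4 and MT-ND4L, and the sources used here do not say how reads from shared bases were counted.

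Summed over members, nuclear subunit mRNA was 3454, 3575 and 3158 CPM in the CTRL hESC libraries and 6876 to 7124 CPM in CTRL iMeLC. It was 2997 to 3252 CPM in CDKO hESC and 7253 to 7341 CPM in CDKO iMeLC. No iMeLC library overlapped any hESC library, and the ratio of means between stages was 2.07 in CTRL and 2.31 in CDKO. The mitochondrial sum was 28289.8 to 30364 CPM in CTRL hESC, 26442 to 32979 in CDKO hESC, 28465 to 43232 in CTRL iMeLC and 37921 to 47244 in CDKO iMeLC. Its stage ratio was 1.28 in CTRL, where groups overlapped, and 1.42 in CDKO, where they did not. These CPM carry TMM scaling factors of 1.107 to 1.157 in hESC and 0.8469 to 0.9456 in iMeLC, and a lower factor gives a higher CPM. As unscaled shares of counts, mitochondrial members had 2.92% to 3.66% in hESC and 2.5% to 4.04% in iMeLC. These shares overlapped in CDKO too, with 3.66% in hESC library 3 and 3.27% in iMeLC of CDKO1102. Nuclear shares did not overlap, at 0.345% to 0.397% and 0.618% to 0.668%. The balance between the genomes, as the mitochondrial sum over the nuclear sum in each library, was 8.71 ± 0.762 (SD, n = 3) in CTRL hESC, 9.65 ± 1.28 (SD, n = 3) in CDKO hESC, 5.40 ± 1.23 (SD, n = 3) in CTRL iMeLC and 5.92 ± 0.678 (SD, n = 3) in CDKO iMeLC.

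**Figure D1:**
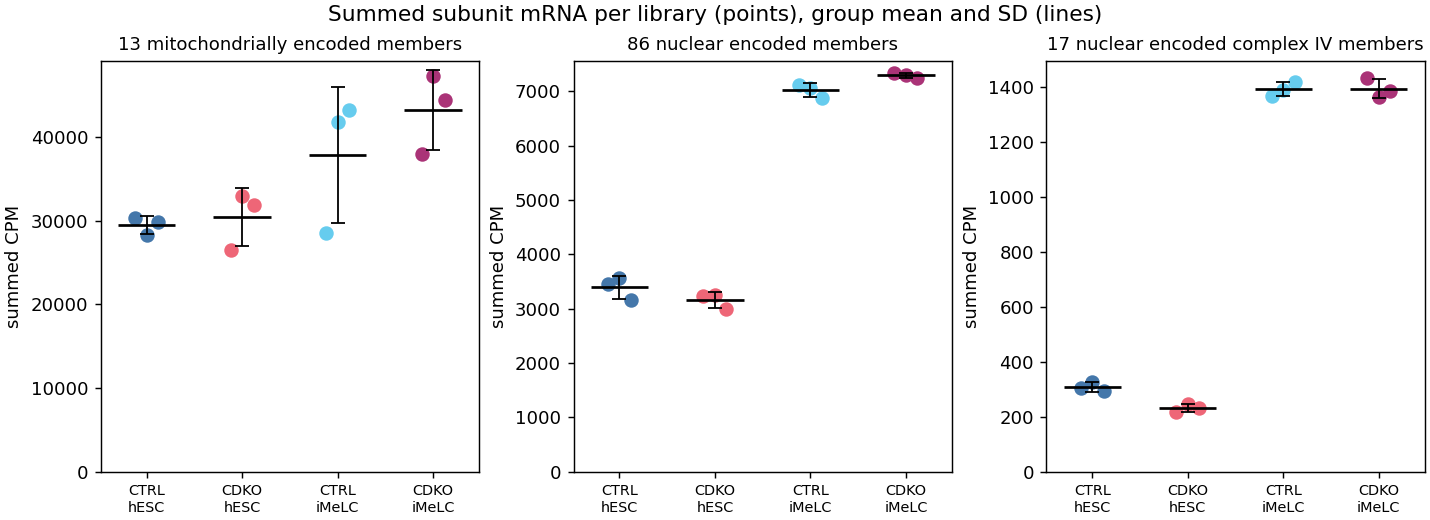
Summed CPM of 13 mitochondrial members, 86 nuclear members and 17 nuclear complex IV members in each library (points), with the group mean and SD (lines) in the 4 groups. The nuclear sum lies between 2997 and 3575 CPM in hESC and between 6876 and 7341 CPM in iMeLC, and the nuclear complex IV sum is 218 to 245 CPM in CDKO hESC against 292 to 327 CPM in CTRL hESC.

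The complexes differed most between stages in complex IV (cytochrome c oxidase), the oxygen-consuming complex. Its nuclear sum was 292 to 327 CPM in CTRL hESC and 1367 to 1419 CPM in CTRL iMeLC, a ratio of means of 4.52, and the ratio was 6.02 in CDKO. The same ratio in CTRL was 2.13 for nuclear complex I, 1.54 for complex II, 1.64 for nuclear complex III and 1.68 for nuclear complex V. Complex IV also had the widest shift in balance: the mitochondrial to nuclear ratio was 39.8 ± 3.71 (SD, n = 3) in CTRL hESC and 11.1 ± 2.45 (SD, n = 3) in CTRL iMeLC. In complex I the ratio went from 11.4 ± 0.664 (SD, n = 3) to 7.04 ± 1.67 (SD, n = 3) between the same groups. None of these sums was tested.

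Gene by gene, iMeLC were compared with hESC within each genotype by edgeR's quasi-likelihood test with Benjamini-Hochberg adjustment over 20262 genes at 0.05. A filter on low counts left 95 members here, 93 in the genotype comparison of hESC (not COX7A1 and ATP5MGL) and 94 in that of iMeLC (not COX6B2). In CTRL, 65 of 95 tested members rose and 5 fell, against 49.4% of all tested genes called, 29.5% higher and 19.9% lower. In CDKO, 73 rose and 4 fell, against 59.8% called, 32.1% higher and 27.7% lower. The nuclear members were 62 of 82 higher in CTRL and 63 of 82 in CDKO, with median log2 fold changes of 1.01 and 1.23, where all tested genes had medians of -0.01 and -0.08. Of the 13 mitochondrial members, 3 rose in CTRL and 10 in CDKO, with medians of 0.34 and 0.51 after TMM scaling. The CTRL figure rested on 1 library: without the iMeLC library of CTRL1101, 12 of 13 mitochondrial members rose. In CDKO it was 5 of 13 without the iMeLC library of CDKO1105, 6 without that of CDKO1312 and 6 without hESC library 1.

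**Figure D2:**
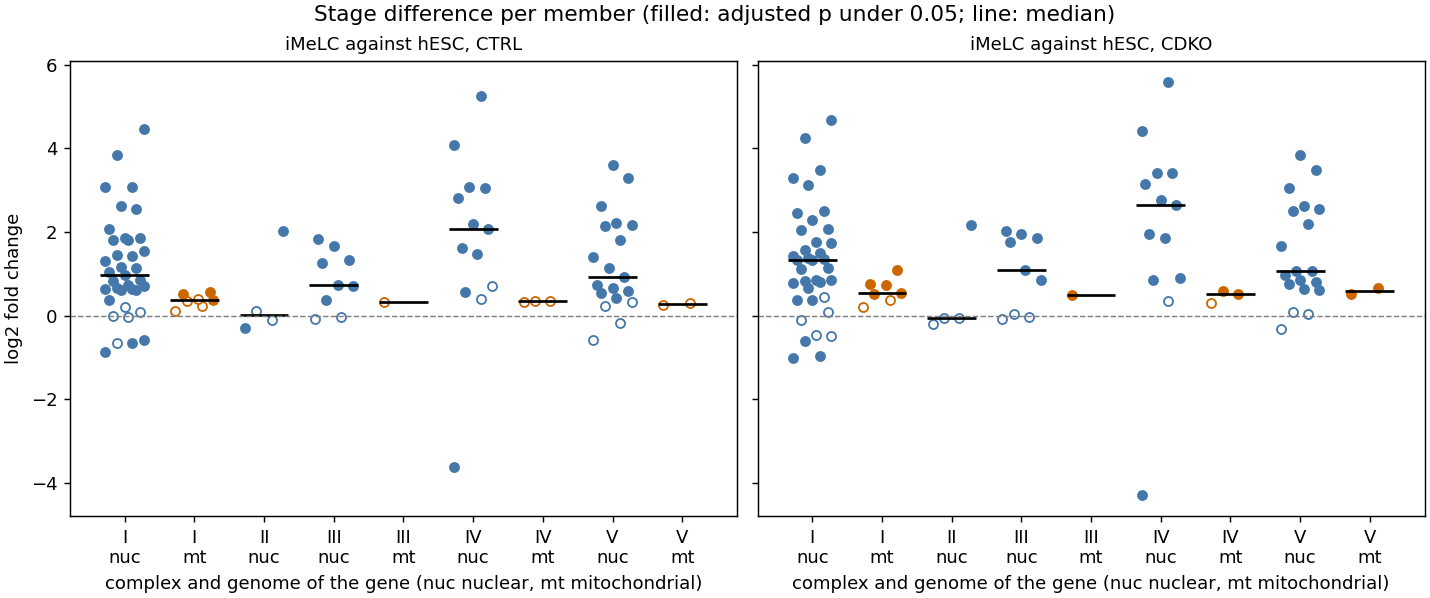
Log2 fold change of each tested member between iMeLC and hESC, in CTRL (left) and CDKO (right), by complex and genome; filled points passed the adjusted p of 0.05, open points did not, and lines are medians. Nuclear complex IV has the highest median, 2.08 in CTRL and 2.64 in CDKO, while the complex II members other than SDHB lie within 0.30 of 0.

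COX6C, an accessory subunit of complex IV, had the largest rise of all members. Its levels were 3.90, 4.95 and 5.23 CPM in CTRL hESC and 169, 150.1 and 215 CPM in CTRL iMeLC, and 2.96, 3.65 and 4.0 CPM in CDKO hESC against 176, 164 and 174 CPM in CDKO iMeLC. Every iMeLC library was far above every hESC library. The fold was 37.8 in CTRL (adjusted p = 3.91e-10, edgeR) and 48.1 in CDKO (adjusted p = 1.33e-10, edgeR). The annotation lists 17 pseudogenes named after COX6C, and the sources used here do not say how reads shared with them were counted. COX5A, another accessory subunit, was 8.74, 6.87 and 5.96 CPM in CTRL hESC and 135, 119.6 and 112 CPM in CTRL iMeLC, with no overlap and a log2 fold change of 4.09 ± 0.13 (SE). COX7A2, COX7B and COX6B1 rose by 3.04, 3.07 and 2.81 in CTRL on the same scale and by 3.40, 3.42 and 3.14 in CDKO.

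Of the other common complex IV subunits, COX7C and COX4I1 had the most reads. COX7C had 99.2, 108 and 97.5 CPM in CTRL hESC and 410.5, 455 and 424 CPM in CTRL iMeLC, a log2 fold change of 2.08 ± 0.09 (SE). COX4I1, the largest nuclear subunit and the first to join the assembling complex, had 108, 116 and 99.8 CPM in CTRL hESC and 345, 322 and 319 CPM in CTRL iMeLC, a log2 fold change of 1.61 ± 0.08 (SE). Neither gene's stages overlapped. All 11 common nuclear subunits of complex IV rose in CDKO, and 10 of 11 in CTRL, where COX8A had 0.39 (adjusted p = 0.053, edgeR).

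Among the tissue-restricted complex IV isoforms, COX6B2 went the other way and the others were scarcely detected. COX6B2, the testis form of COX6B, fell: it was 1.76, 1.67 and 5.87 CPM in CTRL hESC and 0.105, 0.51 and 0.147 CPM in CTRL iMeLC. The groups did not overlap, 1 hESC library was well above the others, and the log2 fold change was -3.61 ± 0.67 (SE) in CTRL (adjusted p = 0.000613, edgeR) and -4.29 in CDKO. COX7A1, the heart and muscle form, was at or below 0.847 CPM in every library. Its log2 fold changes were 0.72 in CTRL and 0.35 in CDKO, neither called. COX4I2, COX6A2, COX7B2 and COX8C had 0 to 15 raw counts per library and were not tested. NDUFA4L2, a relative of NDUFA4 whose symbol is outside the rule, stayed below 2 CPM and was not called between stages in either genotype.

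In complex I, 29 of 37 nuclear members rose and 3 fell in each genotype. NDUFAB1, the mitochondrial acyl carrier protein that is also a complex I subunit, lies at chr16:23581002-23596356 on the minus strand (GRCh38). It was 6.26, 6.27 and 6.51 CPM in CTRL hESC and 161, 145 and 112 CPM in CTRL iMeLC, with no overlap, a fold of 21.9 and an adjusted p of 3.91e-10 (edgeR). In CDKO its fold was 25.7. NDUFS4, an accessory subunit of the peripheral arm whose loss causes Leigh syndrome, had log2 fold changes of 3.84 in CTRL and 4.25 in CDKO, and NDUFB9 had 3.07 and 3.48. Accessory members had a median of 1.09 in CTRL with 24 of 30 higher, and the 7 nuclear core members, which carry the electron path, a median of 0.65 with 5 higher.

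The complex I members that fell were NDUFB8, NDUFA13 and NDUFV2 in CTRL and NDUFV2, NDUFA7 and NDUFA9 in CDKO. NDUFV2, an iron-sulfur subunit of the NADH-binding module, was the one that fell in both. It had 11.7, 9.95 and 14.4 CPM in CTRL hESC and 6.0, 9.63 and 8.69 CPM in CTRL iMeLC, which do not overlap, with a log2 fold change of -0.57 ± 0.20 (SE) in CTRL (adjusted p = 0.0327, edgeR) and -0.96 in CDKO (adjusted p = 0.00138, edgeR). NDUFB8, a membrane-arm subunit often used as a marker of assembled complex I, had -0.87 in CTRL (adjusted p = 0.00372, edgeR) and -0.48 in CDKO (adjusted p = 0.0658, edgeR). NDUFV1, which binds the NADH, had a difference near 0, with 109, 96.1 and 106 CPM in CTRL hESC and 111, 110.2 and 109 CPM in CTRL iMeLC. Its log2 fold change was 0.09 in CTRL, with a 95% interval from -0.06 to 0.23.

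Members of the small complexes II and III were mixed. In complex II only SDHB, the iron-sulfur subunit of succinate dehydrogenase, rose in both genotypes, from 20.7, 26.1 and 18.8 CPM in CTRL hESC to 99.3, 85.5 and 81.3 CPM in CTRL iMeLC, with log2 fold changes of 2.02 and 2.16. SDHA, the flavoprotein that oxidises succinate, had 0.12 in CTRL and -0.06 in CDKO, neither called. SDHC, a membrane anchor, fell in CTRL by 0.30 on the log2 scale (adjusted p = 0.0269, edgeR) and had -0.20 in CDKO (adjusted p = 0.113, edgeR), which was not called. The subunits of 1 complex therefore had unlike stage differences.

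In complex III, 7 of 9 nuclear members rose in CTRL and 6 in CDKO. UQCRC2, a core protein of the matrix side, rose by 1.84 and 2.03 on the log2 scale, and UQCR10, a small accessory subunit, by 1.67 and 1.95. UQCRFS1, the Rieske iron-sulfur protein that hands electrons to cytochrome c1, was 128, 126 and 108 CPM in CTRL hESC and 121, 125 and 109 CPM in CTRL iMeLC. These ranges lay over each other, and its log2 fold change of -0.03 had a 95% interval from -0.20 to 0.15. UQCRHL is an intronless copy of UQCRH, and its rise of 1.34 cannot be told apart from shared reads of UQCRH, which rose by 1.25.

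In ATP synthase, 15 of 19 nuclear members rose in CTRL and 16 in CDKO, and none fell. ATP5F1E, the epsilon subunit of the catalytic head, was 7.58, 7.48 and 5.83 CPM in CTRL hESC and 104, 90.4 and 60.4 CPM in CTRL iMeLC, a log2 fold change of 3.61 ± 0.20 (SE) with no overlap. ATP5MPL, a small membrane subunit, rose by 3.30 and 3.49 in the 2 genotypes. ATP5F1B, the most abundant nuclear member of hESC per length, was 585, 602 and 504 CPM in CTRL hESC and 515, 527 and 455 CPM in CTRL iMeLC. The ranges overlapped, with a log2 fold change of -0.18 in CTRL and 0.04 in CDKO, neither called. ATP5F1A, the alpha subunit that forms the head together with it, rose by 0.66 and 0.86.

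**Figure D3:**
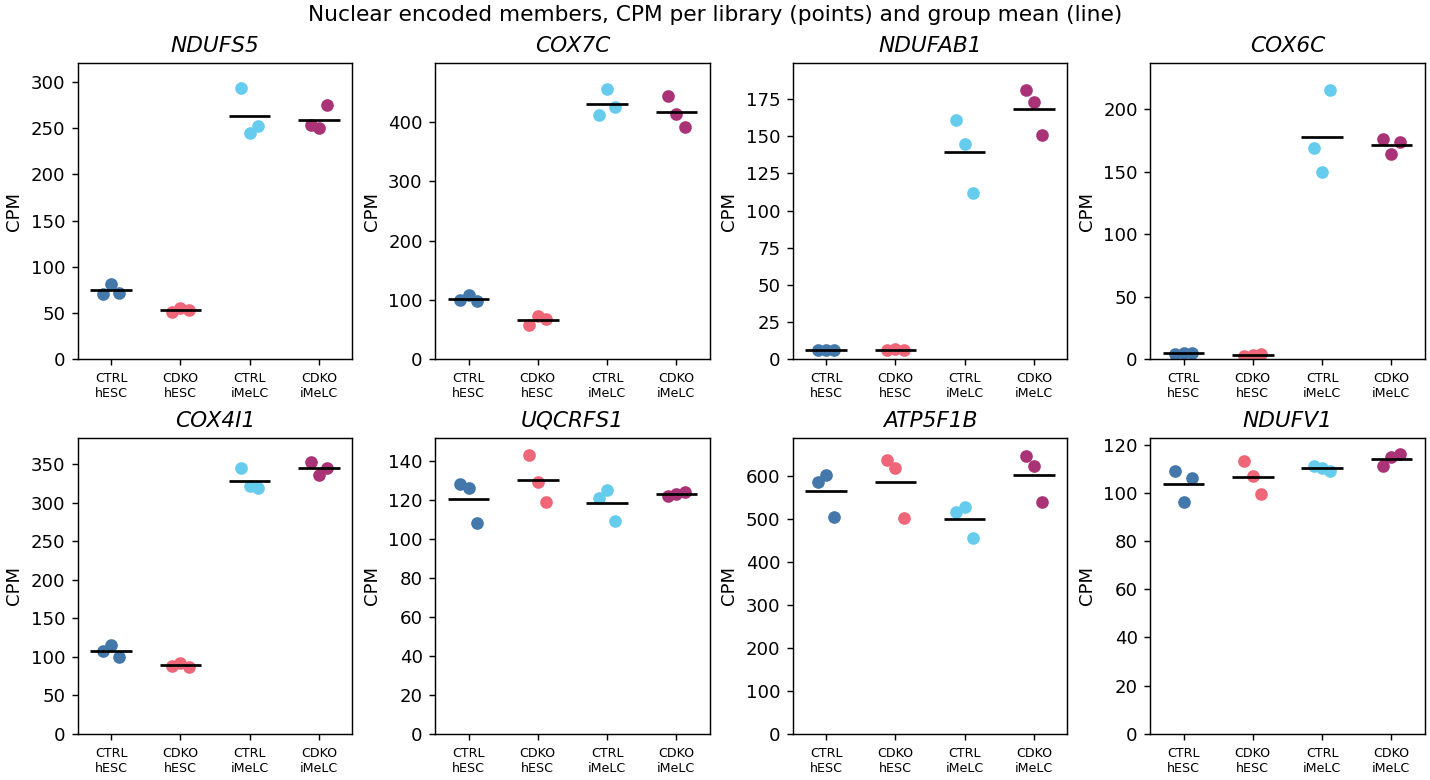
CPM of 8 nuclear members in each library (points) with the group mean (line); each panel has its own linear axis from 0. NDUFAB1 and COX6C are near the bottom of their axes in all hESC libraries, whereas UQCRFS1, ATP5F1B and NDUFV1 have similar levels in all 4 groups, and COX7C and NDUFS5 are lower in CDKO hESC than in CTRL hESC.

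Of the mitochondrial members, MT-ND1, MT-ND2 and MT-ND3 rose in both genotypes. MT-ND1, a membrane subunit at the quinone site of complex I encoded at chrM:3307-4262, was 1707, 1587 and 1426 CPM in CTRL hESC and 2249.9, 2355 and 2199 CPM in CTRL iMeLC. The stages did not overlap, and the log2 fold change was 0.53 ± 0.10 (SE) in CTRL (adjusted p = 0.00081, edgeR) and 0.75 ± 0.10 (SE) in CDKO (adjusted p = 3.63e-05, edgeR). MT-ND3 had the largest mitochondrial difference, 1.09 in CDKO. MT-ND4L, MT-ND6 and MT-CO1 were not called in either genotype, with log2 fold changes from 0.11 to 0.37.

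Properties of the genes and libraries moved with the stage difference. The share of counts on replication-dependent histone genes was 1.27% to 1.67% in hESC and 0.854% to 1.19% in iMeLC. Fibroblast markers, summed, were 381 to 600 CPM in hESC and 518 to 1090 CPM in iMeLC. Of these 8 markers, 6 were called higher and 1 lower in each genotype. The median log2 fold change of all tested protein-coding genes in CTRL ran from -0.37 for genes under 1 exon junction per kilobase of transcript to 0.51 for those with 6 or more, and from 0.44 for transcripts under 45% GC to -0.13 for those of 55% GC or more. Nuclear members followed the GC order, at 2.08, 1.34 and 0.61 for under 45%, 45% to 55% and 55% GC or more, and their Spearman correlation with GC was -0.41 over 82 genes, which share libraries. With junctions per kilobase it was 0.11 for the members and 0.30 for all tested protein-coding genes. Cytosolic ribosomal protein genes, another set of short transcripts chosen after the values were seen, had 60 of 76 higher, 2 lower and a median of 0.98. Their log2 fold changes in CTRL ran from -0.32 to 4.49. RPL27 and RPL5 had 4.49 and 3.59, while RPL3 and RPL4 had 0.02 and 0.11, neither called. Large and near-absent stage differences thus occurred within this set as within the members. Stage and count table cannot be told apart, and the source of this spread was not tested. The part of these properties in the members' stage difference was not tested.

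Promoter sequences were matched for 69 of the 86 nuclear members in RefSeq (GRCh38.p14), each window running from 250 bases before to 50 bases after the start. Binding words known from respiratory gene promoters were searched on both strands. The NRF1 word was its palindromic consensus with 1 base left free. At least 1 window held it in 17 of 69 members (24.6%), against 5.78% of 35116 single windows of all genes. Some members had more than 1 window, as NDUFC1 with 4, so the share of members and the share of windows are unlike measures. The ETS word CCGGAAG, bound by GABPA among others, was found for 21 members (30.4%) against 10.26% of all windows. The YY1 word AAGATGGCG was found for 9 members (13%) against 1.75% of all windows. Windows are shown as examples: COX5A and NDUFAB1 with large rises, SDHA and UQCR11 not called between stages in CTRL, and COX7C and COX5B of complex IV. They do not stand for the other members. Bases are in lower case with any ETS or NRF1 word in capitals, cut to those upstream of the annotated gene.
COX7C (chr5:86617691-86617903, plus strand): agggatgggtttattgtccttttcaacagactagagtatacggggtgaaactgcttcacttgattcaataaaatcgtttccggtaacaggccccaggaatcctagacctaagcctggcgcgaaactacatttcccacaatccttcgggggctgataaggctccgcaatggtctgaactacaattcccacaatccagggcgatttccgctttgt
COX5A (chr15:74938169-74938323, minus strand): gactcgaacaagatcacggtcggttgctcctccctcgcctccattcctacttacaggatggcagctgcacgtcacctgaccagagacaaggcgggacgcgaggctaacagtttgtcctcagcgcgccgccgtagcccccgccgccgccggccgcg
NDUFAB1 (chr16:23596357-23596566, minus strand): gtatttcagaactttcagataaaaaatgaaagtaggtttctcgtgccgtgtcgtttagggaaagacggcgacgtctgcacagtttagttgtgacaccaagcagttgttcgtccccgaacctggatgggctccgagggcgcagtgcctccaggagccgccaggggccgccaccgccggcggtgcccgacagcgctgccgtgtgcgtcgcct
COX5B (chr2:97645812-97646039, plus strand): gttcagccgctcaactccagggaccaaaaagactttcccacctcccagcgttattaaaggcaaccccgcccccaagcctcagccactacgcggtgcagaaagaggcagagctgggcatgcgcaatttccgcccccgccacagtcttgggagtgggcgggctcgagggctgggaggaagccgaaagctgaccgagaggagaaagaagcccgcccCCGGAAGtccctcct
SDHA (chr5:218070-218240, plus strand): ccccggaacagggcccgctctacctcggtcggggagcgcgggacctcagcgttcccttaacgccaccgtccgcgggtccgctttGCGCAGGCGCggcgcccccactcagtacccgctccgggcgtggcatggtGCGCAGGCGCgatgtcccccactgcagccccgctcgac
UQCR11 (chr19:1605491-1605712, minus strand): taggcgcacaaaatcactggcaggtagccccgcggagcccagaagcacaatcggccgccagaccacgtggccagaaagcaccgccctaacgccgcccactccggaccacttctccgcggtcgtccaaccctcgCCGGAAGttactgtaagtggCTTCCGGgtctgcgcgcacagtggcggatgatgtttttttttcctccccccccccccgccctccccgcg

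COX7C, COX5A and NDUFAB1, which rose by 2.08, 4.09 and 4.45 on the log2 scale in CTRL, have none of these words in the stretches shown. SDHA, whose stage difference was 0.12 and not called, has NRF1 words, and UQCR11, at -0.07 and not called, has ETS words, 1 on each strand, and NRF1 words nearer its start, outside the stretch shown. COX5B has an ETS word in the stretch shown and rose by 1.48. Members not shown had words and large rises in CTRL: ATP5MPL the NRF1 word (3.30), COX6B1 the ETS word (2.81) and NDUFS4 the YY1 word (3.84). Across members, the median stage difference in CTRL was 0.72 for 16 tested members with the NRF1 word and 1.28 for 50 without it, and 0.74 with and 1.14 without the ETS word. It was 1.31 for 9 with the YY1 word and 1.04 for 57 without, and 1.54 for 4 with the NRF1 consensus with no free base and 1.09 for 62 without. These are descriptions of letters in a window, and say nothing on binding.

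The knockout was then compared with control in hESC, over 17222 tested genes. Of 93 tested members, 2 fell and 0 rose by edgeR's test, against 1.31% of all tested genes called, 0.714% lower and 0.598% higher. 24 members had an unadjusted p below 0.05, against 16.1% of all genes. Direction was uneven across genomes: 65 of 80 tested nuclear members had negative log2 fold changes, with a median of -0.17, while 6 of 13 mitochondrial members did, with a median of 0.02, and the median of all genes was -0.00. Libraries did not overlap between genotypes for 26 members that were lower in CDKO and 5 that were higher, all nuclear, against 11.8% and 10.2% of all genes.

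COX7C lies at chr5:86617904-86620962 on the plus strand and overlaps another annotated gene, AC108110.1, on that strand. It had 99.2, 108 and 97.5 CPM in CTRL hESC and 58.6, 72.6 and 68 CPM in CDKO hESC. All CDKO libraries were below all CTRL libraries, at a fold of 0.659 and a log2 fold change of -0.60 ± 0.09 (SE), with adjusted p = 0.0177 (edgeR). NDUFS5, at chr1:39026318-39034636 on the plus strand, encodes an accessory subunit on the intermembrane face of complex I. It had 71.2, 81.1 and 71.9 CPM in CTRL hESC and 50.7, 55.3 and 53.4 CPM in CDKO hESC, again without overlap, at a fold of 0.716 and a log2 fold change of -0.48 ± 0.08 (SE), with adjusted p = 0.0271 (edgeR). Both calls were lost when any 1 CDKO library was left out, with adjusted p from 0.0724 to 0.0885 for COX7C and from 0.0904 to 0.128 for NDUFS5 (edgeR). NDUFS5 was also lost without CTRL hESC library 1, at 0.054.

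Complex IV stood lowest of the complexes in CDKO hESC. All 12 of its tested nuclear members had negative log2 fold changes, from -0.84 to -0.15 with a median of -0.37, and 1 was called. The medians of nuclear complexes I, II, III and V were -0.13, -0.04, -0.09 and -0.16. The summed nuclear complex IV mRNA was 292 to 327 CPM in CTRL libraries and 218 to 245 CPM in CDKO, with no overlap and a ratio of means of 0.751, and 0.772 with COX7C and COX4I1 taken out. Its mitochondrial to nuclear ratio was 35.5 to 42.4 in CTRL and 50.9 to 56.0 in CDKO. Nuclear complex I also did not overlap, at 1015 to 1087 and 948 to 1003 CPM, and the other complexes' sums did.

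Members next in order by p were ATP5ME, NDUFB7, NDUFA4 and COX5B, none of which was called by edgeR. NDUFB7, a membrane-arm subunit of complex I, had 60.2, 63.8 and 57.7 CPM in CTRL libraries and 48.8, 47.6 and 48.7 CPM in CDKO (log2 fold change -0.32, adjusted p = 0.0742, edgeR), with the CDKO libraries close together. ATP5ME, a membrane subunit at the dimer interface of ATP synthase, had 56.7, 61.8 and 53.0 CPM in CTRL libraries and 38.4, 42.9 and 46.0 CPM in CDKO (log2 fold change -0.42, adjusted p = 0.0631, edgeR). NDUFA4 had 13.5, 15.0 and 12.5 CPM in CTRL libraries and 8.88, 9.68 and 10.4 CPM in CDKO (-0.49, adjusted p = 0.117, edgeR). COX5B, a zinc-binding matrix subunit, had 29.6, 32.4 and 26.0 CPM in CTRL libraries and 21.2, 23.8 and 22.6 CPM in CDKO (-0.37, adjusted p = 0.134, edgeR). For each of these 4 genes the CDKO libraries lay below all CTRL libraries. COX4I1 and ATP5IF1, the inhibitor of ATP hydrolysis, had -0.27 and -0.23 and were not called.

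With DESeq2, which called 632 genes in all, 4 members fell: COX7C, NDUFS5, ATP5ME and NDUFB7. Other sets moved beside them in CDKO hESC: cytosolic ribosomal protein genes, a list chosen after the values were seen, had 71 of 76 negative and 15 called lower, with a median of -0.24. Summed iMeLC markers were 41.0 to 122 CPM in CTRL libraries and 95 to 586 CPM in CDKO with 8 of 8 markers positive and 1 called, and summed endoderm markers 5.71 to 21.3 and 11 to 144 CPM with 5 of 5 positive and 0 called. No marker of either list was at 0 in all libraries of a group, and the part of these cells in the members' difference was not tested.

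**Figure D4:**
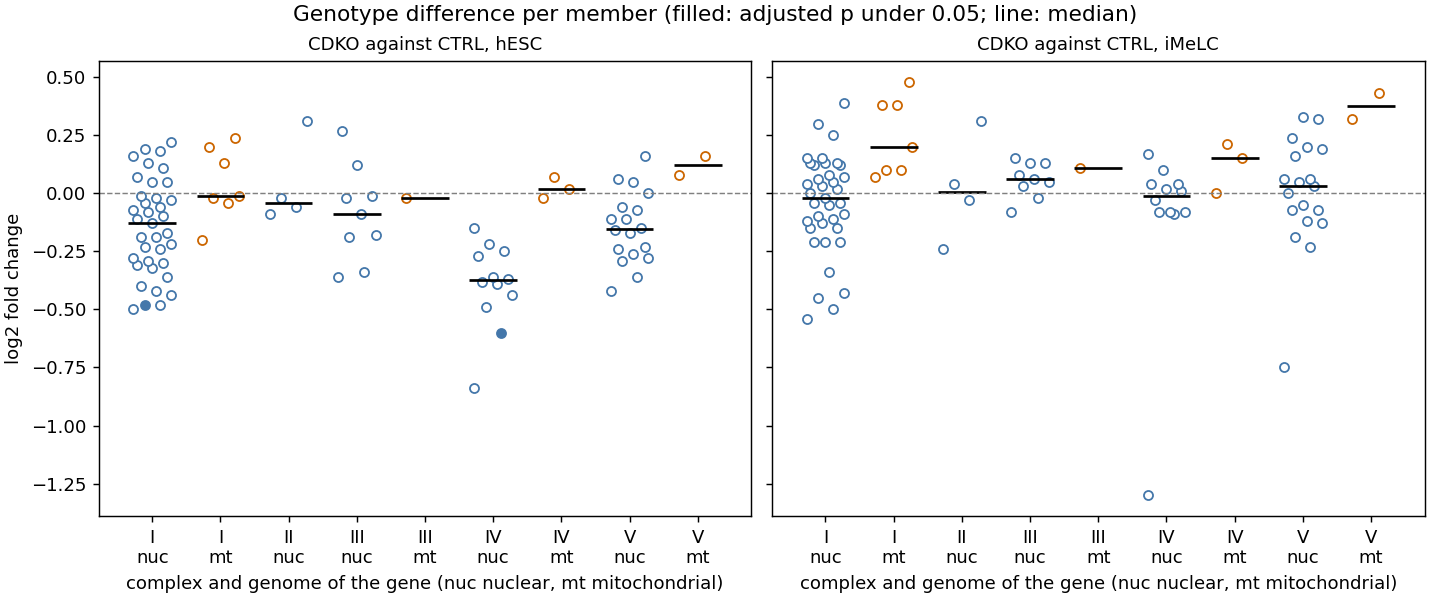
Log2 fold change of each tested member between CDKO and CTRL, in hESC (left) and iMeLC (right), by complex and genome; filled points passed the adjusted p of 0.05 and lines are medians. In hESC all nuclear complex IV points lie below 0 with COX7C filled, and in iMeLC no point is filled and 12 of 13 mitochondrial points lie above 0.

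In iMeLC the genotypes were compared over 19999 genes, and 0 of 94 tested members were called by edgeR, against 0.345% of all genes. An unadjusted p below 0.05 was found for 10 members, against 19.8% of all genes. DESeq2 called 4 members, among 1479 genes called in all. Of the 6 members with the lowest p, 3 were mitochondrial. MT-ND1 had 2249.9, 2355 and 2199 CPM in CTRL libraries and 2724, 3243 and 3067 CPM in CDKO (log2 fold change 0.38, adjusted p = 0.124, edgeR). MT-ND2, a membrane subunit of complex I, had 2259, 2482 and 2461 CPM in CTRL libraries and 3242, 3357 and 2952 CPM in CDKO (0.38, adjusted p = 0.124, edgeR). MT-ND3 had 128, 158 and 170.4 CPM in CTRL libraries and 197, 225 and 228 CPM in CDKO (0.48, adjusted p = 0.133, edgeR). In each of the 3 genes every CDKO library was above every CTRL library, and all 3 were among the 4 that DESeq2 called, with adjusted p from 0.023 to 0.029. The other was NDUFA11.

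Mitochondrial members did not behave alike across the control lines. In the iMeLC library of CTRL1101, MT-ND4, MT-ND5 and MT-CO1 were 0.583, 0.576 and 0.633 times the mean of the other control lines, while MT-ND1, MT-ND2 and MT-ND6 were 0.988, 0.914 and 0.958 times that mean. MT-ND1 and MT-ND2 lie next to each other early on the heavy-strand transcript, and MT-ND6 is on the other strand. Without CTRL1101, CDKO over CTRL was 1.32 for MT-ND1, 1.29 for MT-ND2 and 1.32 for MT-ND3, and 0.944 for MT-ND4, 0.943 for MT-ND5 and 0.897 for MT-CO1. Without that library, 6 members were called: MT-ND1, MT-ND2, MT-ND3 and ATP5MD higher, and NDUFA11 and NDUFV2 lower. The count over all genes without that library is not given here, so these 6 cannot be set beside a share.

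**Figure D5:**
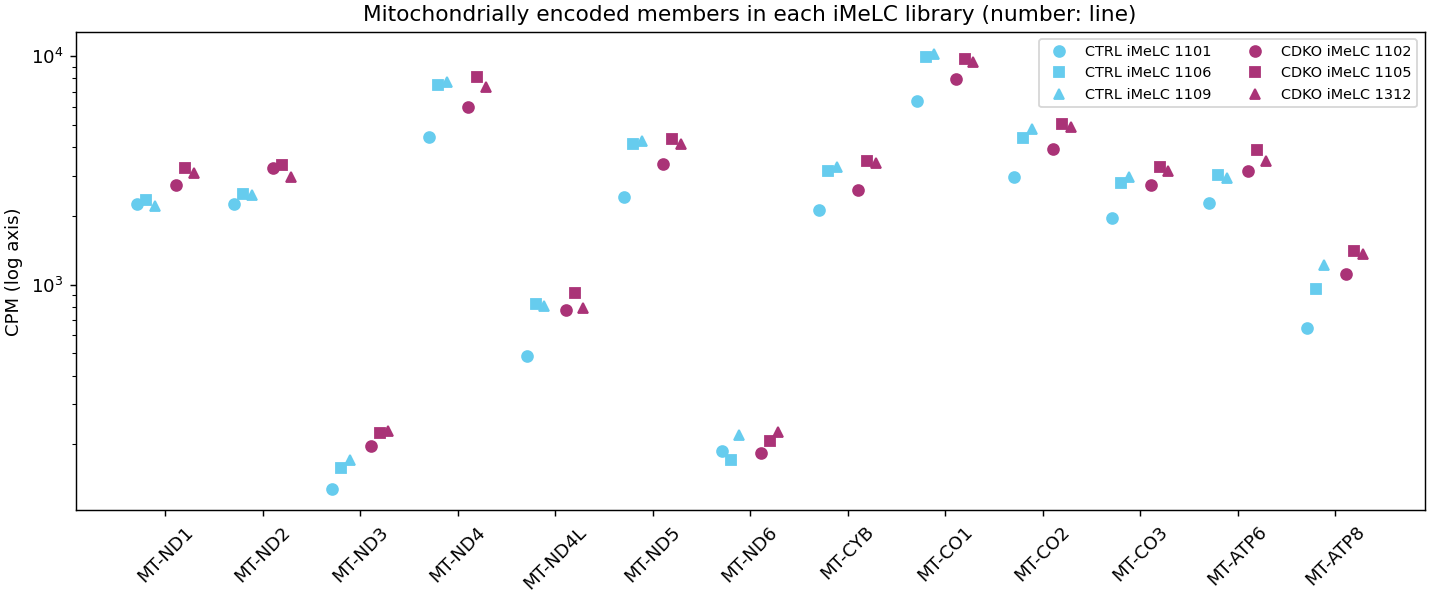
CPM on a log axis of the 13 mitochondrial members in each iMeLC library, with CTRL lines in light blue, CDKO lines in purple and a marker shape per line. CTRL1101 (light blue circles) is lowest of all libraries for MT-ND4, MT-ND5, MT-CYB and the MT-CO genes, but lies beside the other CTRL lines for MT-ND1 and MT-ND6.

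Nuclear members in iMeLC had a median log2 fold change of 0.02. Their sum was 6876 to 7124 CPM in CTRL and 7253 to 7341 CPM in CDKO, without overlap at a ratio of means of 1.04. The 2 mitochondrial ATP synthase genes summed to 2915 to 4154 and 4269 to 5301 CPM, also without overlap. The hESC difference in complex IV was not seen there: its nuclear sum was 1367 to 1419 CPM in CTRL libraries and 1364 to 1433 CPM in CDKO. COX7C had 410.5, 455 and 424 CPM in CTRL libraries and 443, 413 and 390.4 CPM in CDKO, which overlapped, with a log2 fold change of -0.08 and a 95% interval from -0.24 to 0.09. NDUFS5 had -0.05, with an interval from -0.23 to 0.13. NDUFA11, a membrane-arm subunit of complex I, had 16.8, 18.9 and 18.5 CPM in CTRL libraries and 12.1, 13 and 13.8 CPM in CDKO, without overlap (-0.50, adjusted p = 0.127, edgeR). Members did not overlap between genotypes for 21 higher and 6 lower in CDKO, against 14.3% and 12.2% of all genes. Summed iMeLC markers were 359 to 1405 CPM in CTRL libraries and 1769 to 2162 CPM in CDKO. Of these 8 markers, 6 were positive, 2 negative and 0 called. CER1 was at most 352 CPM in CTRL libraries and at least 565 CPM in CDKO. EOMES overlapped, at 16.4 to 148 and 126 to 168 CPM, as did MIXL1, at 22.8 to 242 and 147 to 251 CPM. Summed endoderm markers were 13.2 to 123 and 151 to 332 CPM, with 5 of 5 positive and 0 called. The part of both marker lists in the members' values was not tested.

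Whether the genotype difference differed between stages was tested as an interaction over all 12 libraries. By edgeR 0 of 95 members were called, against 0.0197% of all genes, with 18 members at an unadjusted p below 0.05 (11.2% of all genes). DESeq2 called 2 members, MT-ND3 and COX7C, among 192 genes called in all. The interaction was 0.56 ± 0.13 (SE) for COX7C (adjusted p = 0.208, edgeR) and 0.72 ± 0.18 (SE) for MT-ND3 (adjusted p = 0.219, edgeR), positive where the CDKO to CTRL ratio was higher in iMeLC. All 11 common nuclear complex IV members had positive values, from 0.30 to 0.57 with a median of 0.35. This sign was not particular to complex IV: 64 of 82 tested nuclear members were positive, with a median of 0.22. Cytosolic ribosomal protein genes, the list chosen after the values were seen, had 69 of 76 positive and a median of 0.33. The stage comparisons of CTRL and CDKO, the genotype comparisons and the interaction share libraries.

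Genes that build and serve the chain were taken from lists of pathway genes. Among 49 assembly factors, 29 rose and 3 fell between stages in CTRL, and 27 and 5 in CDKO. Of all tested genes, 29.5% rose and 19.9% fell in CTRL, and 32.1% and 27.7% in CDKO. COX17, the copper chaperone of complex IV, rose by 2.62 and 2.95 on the log2 scale. In CDKO hESC 1 of 49 assembly factors was called, against 1.31% of all tested genes. It was UQCC2, which is needed to make cytochrome b. UQCC2 had 22.0, 20.1 and 22.3 CPM in CTRL libraries and 13, 14.1 and 15.6 CPM in CDKO, without overlap (-0.58, adjusted p = 0.0418, edgeR). In CDKO iMeLC, 0 were called by edgeR, and 4 had an unadjusted p below 0.05, against 19.8% of all genes.

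Of 20 genes of mitochondrial DNA upkeep and transcription, 8 rose in CTRL and 0 fell, against 29.5% higher and 19.9% lower of all genes. SSBP1, which coats single-stranded mitochondrial DNA, rose by 2.39, while TFAM, the packaging and transcription factor of that DNA, had 0.02 and was not called. Among 20 genes of mitochondrial RNA processing, 13 rose and 2 fell in CTRL, beside the same shares of all genes. SLIRP was 4.40, 6.16 and 3.44 CPM in CTRL hESC and 127, 121 and 109 CPM in CTRL iMeLC, a log2 fold change of 4.68, and LRPPRC, its partner in stabilising mitochondrial mRNA, rose by 1.42. Between genotypes 0 genes of these lists were called by edgeR, with 2 and 1 at an unadjusted p below 0.05 in hESC, against 16.1% of all genes, and 0 and 2 in iMeLC, against 19.8%.

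Among 15 nuclear regulators of respiratory genes, 5 rose and 4 fell in each genotype, against 29.5% higher and 19.9% lower of all genes in CTRL and 32.1% and 27.7% in CDKO. NRF1, whose word was searched above, was 12.1, 12.3 and 12.5 CPM in CTRL hESC and 33.1, 29.2 and 28.3 CPM in CTRL iMeLC, and rose by 1.29. PPARGC1A, the coactivator of mitochondrial biogenesis, had 0.48 and was not called (adjusted p = 0.212, edgeR), and MYCN fell by 1.27. In the list of electron carriers and coenzyme Q synthesis, 15 of 20 rose and 3 fell in CTRL. Between genotypes 0 genes of these lists were called by edgeR, with 2 and 2 at an unadjusted p below 0.05 in hESC, against 16.1% of all genes, and 2 and 3 in iMeLC, against 19.8%. CYC1 was among those that fell between stages, from 153, 160.3 and 154 CPM in CTRL hESC to 116, 114 and 102 CPM in CTRL iMeLC, by 0.49 on the log2 scale (adjusted p = 9.95e-05, edgeR).

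Of 24 genes of the citric acid cycle and pyruvate entry, 16 rose and 2 fell in CTRL, against 29.5% higher and 19.9% lower of all genes. FH, fumarase, rose by 2.78. In CDKO hESC 1 of these 24 genes was called, against 1.31% of all tested genes: MDH2, the mitochondrial malate dehydrogenase. MDH2 had 67.5, 78.3 and 66.9 CPM in CTRL libraries and 51.2, 54.4 and 50.8 CPM in CDKO, without overlap (-0.43, adjusted p = 0.0418, edgeR). Of 16 carriers, inhibitor and uncoupling genes, which include the member ATP5IF1, 11 rose and 1 fell in CTRL, beside the same shares of all genes. VDAC1, VDAC2 and VDAC3, the outer membrane channels, rose by 1.52 to 1.91. In iMeLC 0 genes of these 2 lists were called between genotypes by edgeR, with 7 of 24 and 7 of 16 at an unadjusted p below 0.05, against 19.8% of all genes. SUCLG1, of succinyl-CoA ligase, was nearest at 0.47 (adjusted p = 0.088, edgeR).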

How the data were processed

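Per the labels, total RNA was extracted with an RNeasy micro kit and made into libraries with a SMARTer stranded kit. The authors deposited whole-number counts per gene symbol, not normalised, in 1 table per stage. The submitters' processing notes name FastQC, cutadapt, edgeR and GRCh38, with no word on aligner, counter, annotation or strand setting. The hESC columns are headed WT or KO with a number that names no line, and were taken as CTRL and CDKO. All 99 members matched 1 gene of GENCODE v29 (GRCh38): 34 overlap an exon of another gene on the opposite strand, 30 on the same strand, and 46 nuclear members have pseudogenes of their name, so shared reads are uncertain.

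Counts were scaled by TMM and tested with edgeR 4.0.16 in R 4.3.3 (two-sided quasi-likelihood F test, filterByExpr, Benjamini-Hochberg over all genes tested, 0.05), within each stage for genotype and over 12 libraries for stage and interaction. P-values measure the spread between these libraries, which the labels list by numbered line although the hESC columns name no line. The stage and interaction tests treated the 12 libraries as independent, while the labels list the same lines at both stages. CPM use TMM factors of all 12 libraries, and RPKM the union exon length. Intervals called 95% are normal approximations from the SE of the fit, and are narrower than the F test itself would give.

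Named were all mitochondrial members, called members, the 6 of lowest p per genotype comparison, the 3 largest rises and falls per complex between stages, restricted isoforms with their partners, and the 4 of lowest p per pathway list. Other names (such as NDUFV1, UQCRFS1, SDHA, ATP5F1A, ATP5F1B, UQCRH, COX7C and COX5B between stages, NDUFS5 and COX7C in iMeLC, TFAM and CYC1) were chosen after their values were seen. The members and lists were chosen with earlier results of these data known. Mitochondrial ribosomal RNAs and nuclear copies of mitochondrial genes were not analysed here. Alternatives were DESeq2 1.42.0, RLE factors, no low-count filter, other library sets, mitochondrial genes removed and each library left out.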

Additional observations from a re-analysis of the deposited data

How the results depend on the processing

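Depth limits the members of few reads: COX7A1 stayed at or below 0.847 CPM and ATP5MGL at or below 0.934 CPM in every library, and both were too low to be tested between genotypes in hESC. No paired analysis was possible because the hESC columns name no line and CTRL and CDKO lines carry different numbers.

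In hESC the genotype count of 2 members was 4 with DESeq2 and 6 without the low-count filter, all nuclear, and 0 to 3 with 1 library left out. Over all genes, 226 were called in the main fit, 632 with DESeq2 and 1228 without the filter. In iMeLC the count of 0 was 4 with DESeq2 (1 nuclear, 3 mitochondrial), 3 over all 12 libraries (all mitochondrial) and 0 to 6 with 1 library left out (nuclear 0 to 3, mitochondrial 0 to 3). Here the calls over all genes also rose, from 69 in the main fit to 1479 with DESeq2 and 1310 over all 12 libraries. Members called between stages in CTRL were 67 to 79 with 1 library left out (nuclear 64 to 68, mitochondrial 2 to 12), with 10 mitochondrial members without the filter. In CDKO they were 71 to 81 (nuclear 64 to 70, mitochondrial 5 to 11). The interaction count was 2 with DESeq2 (1 nuclear, 1 mitochondrial) and 0 to 1 with 1 library left out. Over all genes it was 4 in the main fit and 192 with DESeq2.

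The mitochondrial to nuclear ratio with medians in place of sums was 132, 151, 49.9 and 53.5 for CTRL and CDKO hESC and then CTRL and CDKO iMeLC, and 6.66, 7.34, 4.14 and 4.68 without the most abundant mitochondrial member. In CTRL iMeLC it was 6.1 without CTRL1101. The ratio of median RPKM was 335, 399.9, 148 and 179.7 with union exon length, and 113, 132, 39.3 and 46.6 with the median transcript length, an alternative added after seeing the data. The cause of these shifts was not tested.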
